A study of Mus musculus with 7 samples.

Results

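The 6 genes described here encode the mouse DNA methyltransferases and their cofactors: Dnmt1, Uhrf1, Uhrf2, Dnmt3a, Dnmt3b and Dnmt3l. They were taken by symbol from a table of 55484 genes, and each symbol matched 1 gene. All 6 passed the filter on low counts, which left 16580 genes for testing.

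In mammalian DNA, methylation of cytosine in CG dinucleotides is set by de novo enzymes and copied to the new strand after replication by a maintenance enzyme. DNMT3A and DNMT3B are the de novo enzymes, and DNMT3L is a relative without catalytic activity that binds and stimulates them. DNMT1 copies the pattern, and UHRF1 brings it to half-methylated DNA during S phase, whereas UHRF2 is a close relative of UHRF1 that does not replace it in maintenance.

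Gene expression was measured in bulk RNA from mouse embryonic fibroblasts (MEFs, 4 libraries), which are connective tissue cells grown from embryos, and from mouse embryonic stem cells (mESCs, 3 libraries), which are pluripotent cells. Both cell types had a C57/Bl6 background, and the labels name no treatment or engineered allele. The libraries were primed at the poly(A) tail, so counts came mainly from transcript 3′ ends, and each molecule carried an identifier. The study describes the replicates of its expression data as biological, in equal number for the cell types. The table analysed here holds 4 MEF and 3 mESC libraries, and the reason for the difference is not given in the sources used here. The methods of the study describe a sort for chromatin libraries, in which MEFs were Thy1+ and mESCs were Thy1- as well as Ssea1+ and Epcam+, and whether the RNA came from sorted cells is not given, nor are culture medium, passage, embryo age or the sex of the cells.

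Total counts were 11441278, 9176467, 7312679 and 6528643 in the MEF libraries and 8193825, 8057985 and 7462710 in the mESC libraries, and each library is named here by its total. Levels are counts scaled to library size (CPM) after TMM scaling, and 3 counts, the detection floor used here, correspond to 0.288 to 0.477 CPM. The extraction text in the labels describes blood stem cells, but the marker genes followed the labelled cell types. All 12 pluripotency markers were higher in mESCs, with a summed level of 44.8 to 49.1 CPM in MEFs and 3548 to 3820 CPM in mESCs. All 15 fibroblast markers were lower in mESCs, with 26702 to 43510 CPM in MEFs and 386 to 435 CPM in mESCs, and no marker of either list was at 0 in a whole cell type. The 7 blood cell markers summed to 35.4 to 50.2 CPM in MEFs, mostly Cd34 with a mean of 28.5 CPM, and to 31.5 to 34.99 CPM in mESCs, almost all Kit with a mean of 32.0 CPM. Ptprc, which defines blood cells, averaged 1.0005 CPM in MEFs and 0.0379 CPM in mESCs. In 3 libraries, the MEF libraries of 9176467 and 6528643 counts and the mESC library of 7462710 counts, the Y-linked gene Eif2s3y stood at 22.9, 28.0 and 27.7 CPM, against at most 0.682 CPM in the other 4. In the same order, Y-linked Ddx3y stood at 52.4, 48.3 and 6.72 CPM, against at most 1.53 CPM. Y-linked Kdm5d stood at 15.3, 12.1 and 1.42 CPM, against at most 0.759 CPM. Y-linked Uty did not follow this split, at 7.84 to 16.2 CPM over the 7 libraries. The X-linked gene Xist was at 43.3 to 73.8 CPM in MEFs and 12.3 to 14.6 CPM in mESCs.

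The largest differences between the cell types were in the embryonic de novo enzyme and its cofactor. Dnmt3b was 20.02-fold and Dnmt3l 111-fold higher in mESCs, while Dnmt3a was 1.65-fold higher in MEFs. Uhrf1 was 2.02-fold higher in mESCs, Uhrf2 was 1.52-fold higher in MEFs, and Dnmt1 did not pass the test. In the quasi-likelihood test of edgeR, with p-values adjusted by Benjamini-Hochberg, 5 of the 6 genes passed 0.05, 3 higher and 2 lower in mESCs. Among all genes tested this share was 47.9%, with 22.8% higher and 25% lower, so a call by itself was common in this comparison. Without TMM scaling the balance turned, with 31.2% of genes higher and 20.2% lower in mESCs. For 4 of the 6 genes no MEF library lay within the mESC range or the reverse, against 52.1% of all genes tested. By size, 3.02% of genes tested had a larger log2 fold change than Dnmt3b and 0.844% a larger one than Dnmt3l. Dnmt3l passed the filter on low counts through the mESC libraries, so its direction was fixed by it.

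**Figure D1:**
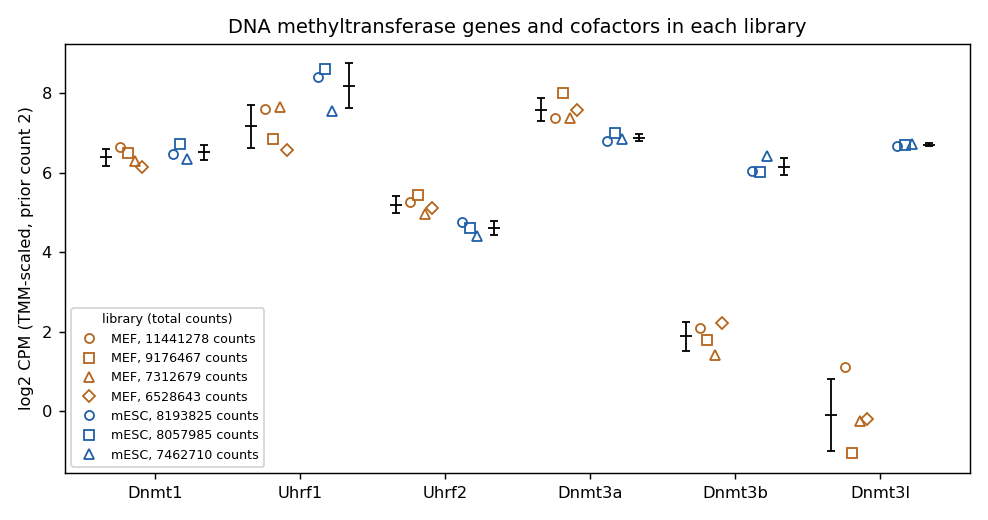
Level of each gene in log2 CPM (TMM-scaled, prior count of 2), with 1 point per library and the mean and SD of each cell type. The 2 cell types are far apart for Dnmt3b and Dnmt3l, close together for Dnmt3a and Uhrf2, and overlapping for Dnmt1 and Uhrf1.

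Dnmt1 (GRCm38 chromosome 9, 20907209 to 20959888, minus strand), the maintenance methyltransferase, held 98.8, 88.9, 77.3 and 70.0 CPM in the MEF libraries and 87.6, 105 and 81.1 CPM in the mESC libraries, in the order of depth given above. The cell types overlapped, since 1 mESC library lay above every MEF library and the others lay within the MEF range. The mean was 83.7 ± 12.7 CPM (SD, n = 4) in MEFs and 91.3 ± 12.5 CPM (SD, n = 3) in mESCs. Its log2 fold change, mESC minus MEF, was 0.12 (standard error, SE, 0.171), with a 95% interval of -0.26 to 0.50 (edgeR adjusted p = 0.593). Without TMM scaling it was 0.40 (adjusted p = 0.0604), short of the threshold but over 3 times as large. These libraries therefore leave room for a change in either direction, and the missed threshold does not show equal levels.

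Dnmt1 is known to be expressed with the genes of S phase, so its level was set against 22 of them in the same libraries. The mean log2 CPM of the S phase genes was 5.65, 5.25, 5.55 and 5.22 in the MEF libraries and 6.20, 6.20 and 6.25 in the mESC libraries. Of the 22 genes, 15 were higher and 2 lower in mESCs, with a median log2 fold change of 0.84 against 0.04 over all genes tested. The called share was 77.3%, against 47.9% of all genes tested. Cdt1, which licenses replication origins, had a log2 fold change of 2.04 and the helicase subunit genes Mcm7 and Mcm3 had 1.94 and 1.54, while Ccne2 and Rrm1, for a cyclin and a ribonucleotide reductase subunit, had -0.81 each. Ccne2 lost its call without TMM scaling (-0.53, adjusted p = 0.0660) and without the mESC library of 8193825 counts (adjusted p = 0.0507). Relative to the S phase mean, Dnmt1 stood at 0.96 ± 0.206 log2 units in MEFs (SD, n = 4) and 0.29 ± 0.214 in mESCs (SD, n = 3), and the cell types did not overlap. The difference was -0.67 log2 units (two-sided exact permutation p = 0.0286, the smallest that 35 splits of 7 libraries allow, and 0.0571 after adjustment over the pair of genes set against this list). The difference did not pass 0.05 after adjustment.

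Uhrf1 (chromosome 17, 56303321 to 56323486, plus strand), whose protein reads half-methylated DNA and recruits DNMT1, had the largest SD in CPM of the 6 genes in both cell types. It held 193, 114, 201 and 94.0 CPM in the MEF libraries and 338, 387 and 187 CPM in the mESC libraries. The lowest mESC library lay below the higher pair of MEF libraries, so the groups overlapped, and the means were 151 ± 54.3 CPM (SD, n = 4) and 304 ± 104 CPM (SD, n = 3). The log2 fold change was 1.01 (SE 0.305, 95% interval 0.34 to 1.69, edgeR adjusted p = 0.0183). This call rested on single libraries: the adjusted p was 0.0511 without the MEF library of 9176467 counts, 0.0656 without the mESC library of 8193825 counts and 0.0817 without that of 8057985 counts. The lowest Uhrf1 levels within each cell type were in the 3 libraries with high Eif2s3y. The MEF libraries among them also had the lower S phase means of the MEFs, 5.25 and 5.22 log2 CPM. The mESC library among them had the highest S phase mean of the mESCs, 6.25 log2 CPM. The part of either difference in the result was not tested.

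Set against the S phase genes, Uhrf1 differed between the cell types by 0.22 log2 units with overlapping libraries (two-sided exact permutation p = 0.6, adjusted 0.6). Leaving out 1 library moved this difference from 0.0083, without the mESC library of 8057985 counts, to 0.56, without that of 7462710 counts, so its size is not settled by these libraries. The count of Uhrf1 was 1.95, 1.29, 2.60 and 1.34 times that of Dnmt1 in the MEF libraries and 3.86, 3.67 and 2.31 times in the mESC libraries. This ratio overlapped between the cell types and differed by 0.89 log2 units (two-sided exact permutation p = 0.0857). Of the 4348 50-base sequences of Uhrf1, 15.4% also occur in other genes, 638 of them in Gm5648, so reads from these stretches may not have been counted as unique.

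E2F factors drive many S phase genes, and their core motif was searched for in 300-base windows around annotated starts (250 bases before to 50 after), taken from RefSeq for GRCm38.p6. The letters searched were TTTCCCGC, TTTCGCGC, TTTGCCGC and TTTGGCGC on both strands, and 2.26% of the 32851 windows in the table held at least 1 match. Of 13 windows for the 6 genes, 2 held a match, 1 of the 3 windows of Dnmt1 and 1 of the 2 windows of Uhrf1. The Dnmt1 window held 2 matches and the Uhrf1 window 1, while of these genes only Uhrf1 passed the test. The Uhrf1 window, chr17:56304063-56304362 on the plus strand, is shown with the matched letters in capitals.
Uhrf1: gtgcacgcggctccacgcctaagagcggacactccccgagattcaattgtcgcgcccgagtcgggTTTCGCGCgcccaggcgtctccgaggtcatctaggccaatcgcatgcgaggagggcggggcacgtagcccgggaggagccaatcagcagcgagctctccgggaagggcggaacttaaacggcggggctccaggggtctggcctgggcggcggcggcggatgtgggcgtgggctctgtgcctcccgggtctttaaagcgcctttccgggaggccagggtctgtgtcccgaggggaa
A match of letters is a description of this window, and the 3′-biased counts do not tell which start was used.

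Uhrf2 (chromosome 19, 30030513 to 30093722, plus strand), the relative that does not replace Uhrf1, went the other way. It held 38.1, 43.1, 30.6 and 34.2 CPM in the MEF libraries and 27.0, 24.1 and 21.1 CPM in the mESC libraries. Every MEF library lay above every mESC library, although the nearest pair was close. The mean fell from 36.5 ± 5.36 CPM (SD, n = 4) in MEFs to 24.1 ± 2.93 CPM (SD, n = 3) in mESCs, and the fitted level was 34.1% lower, a log2 fold change of -0.60 (SE 0.194, 95% interval -1.03 to -0.17, edgeR adjusted p = 0.0249). The call was lost without TMM scaling, where the log2 fold change was -0.32 (adjusted p = 0.196), and without any of 3 single libraries, the MEF library of 9176467 counts (0.0635) and the mESC libraries of 8057985 (0.0610) and 7462710 counts (0.0866). TMM scaling moved the mESC libraries by -0.28 log2 units relative to the MEF libraries, and without it the median over all genes tested was 0.32 in place of 0.04 on the log2 scale.

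A ratio within a library does not depend on that scaling. The Uhrf1 count was 5.05, 2.65, 6.56 and 2.74 times the Uhrf2 count in the MEF libraries and 12.5, 16.02 and 8.84 times in the mESC libraries. The ranges of the ratio did not overlap, and the difference was 1.62 log2 units (two-sided exact permutation p = 0.0571, adjusted 0.0667 over 7 ratios). With 4 libraries against 3 the smallest exact p is 0.0286, and after adjustment no ratio passed 0.05.

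**Figure D2:**
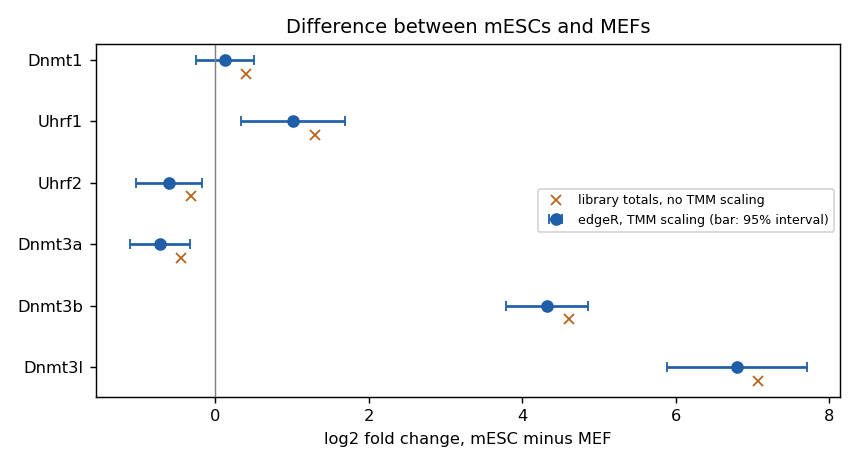
Log2 fold change, mESC minus MEF, of each gene with its 95% interval from edgeR with TMM scaling of the libraries. Values without TMM scaling are points with no interval. Dnmt3b and Dnmt3l are far above 0 under both scalings, whereas the values of Dnmt3a and Uhrf2 lie nearer to 0 without TMM scaling.

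Dnmt3a (chromosome 12, 3806007 to 3914443, plus strand), the de novo enzyme used widely in somatic cells, was the only de novo gene higher in MEFs among the 3 genes of the DNMT3 family examined. It held 166, 254, 164 and 189 CPM in the MEF libraries and 111, 127 and 114 CPM in the mESC libraries. The lowest MEF library was above the highest mESC library, and the mESC libraries lay close together. The means were 193 ± 42.0 CPM (SD, n = 4) and 117 ± 8.13 CPM (SD, n = 3), and the fitted level was 39.3% lower in mESCs. The log2 fold change was -0.72 (SE 0.179, 95% interval -1.12 to -0.32, edgeR adjusted p = 0.00688). Without TMM scaling it was -0.44 and no longer passed (adjusted p = 0.0607). The antisense gene Dnmt3aos overlaps 0.799% of the Dnmt3a exonic bases and had 4 counts in all MEF libraries and 4 in all mESC libraries.

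Dnmt3b (chromosome 2, 153649450 to 153687730, plus strand), the de novo enzyme of the early embryo, was counted 42, 27, 16 and 28 times in the MEF libraries and 603, 563 and 718 times in the mESC libraries. In CPM these counts were 4.03, 3.24, 2.44 and 4.45 in MEFs and 65.4, 64.0 and 84.7 in mESCs. All 4 MEF libraries were above the floor of 3 counts, and all were far below the lowest mESC library. The means were 3.54 ± 0.890 CPM (SD, n = 4) and 71.3 ± 11.6 CPM (SD, n = 3), a log2 fold change of 4.32 (SE 0.241, 95% interval 3.79 to 4.86, edgeR adjusted p = 2.57e-07). Its near copy Dnmt3c, a rodent gene active in male germ cells, shares 514 of the 5242 50-base sequences of Dnmt3b, 9.81%. Dnmt3c itself had 4 counts over the MEF libraries and 2 over the mESC libraries and was not tested, but reads from the shared stretch may not have been counted as unique.

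Dnmt3l (chromosome 10, 78041947 to 78063622, plus strand), the cofactor without catalytic activity, had the largest fold of the 6 genes. It was counted 20, 2, 4 and 4 times in the MEF libraries and 930, 915 and 895 times in the mESC libraries, or 1.92, 0.240, 0.610 and 0.636 CPM and 101, 104 and 106 CPM. The mESC libraries were nearly equal, and the MEF libraries were at or near the floor except the deepest, which held most of the MEF counts. The means were 0.851 ± 0.734 CPM (SD, n = 4) and 103 ± 2.44 CPM (SD, n = 3), and the log2 fold change was 6.80 (SE 0.411, 95% interval 5.89 to 7.71, edgeR adjusted p = 4.41e-07). Without the MEF library of 11441278 counts the log2 fold change was 7.71, so the size of the fold, but not the call, depended on that library. Dnmt3l passed the filter on low counts through the mESC libraries, so the direction of its call was fixed by it.

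The Dnmt3l exons overlap those of Aire, a thymic transcription factor gene on the opposite strand, over 67 bases, 2.24% of the Dnmt3l exonic bases. Aire was counted 10, 11, 8 and 1 times in the MEF libraries and 122, 270 and 129 times in the mESC libraries. Its log2 fold change was 4.38 (edgeR adjusted p = 4.92e-05), but Aire passed the filter on low counts through the mESC libraries, so its direction was fixed by it. Because the strand setting of the counting is not given, reads in the shared bases cannot be told apart.

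The windows around the starts of Dnmt3b and Dnmt3l are shown because both genes were far higher in mESCs, while their starts differ in CG content, the substrate of these enzymes. The single Dnmt3b window, chr2:153649199-153649498 on the plus strand, held 30 CG, more than in 88.3% of all windows, whose median was 7. The first of 3 Dnmt3l windows, chr10:78042037-78042336 on the plus strand, held 6 CG, more than in 43.6% of windows, and the others held 4 and 3. Each CG is in capitals.
Dnmt3b: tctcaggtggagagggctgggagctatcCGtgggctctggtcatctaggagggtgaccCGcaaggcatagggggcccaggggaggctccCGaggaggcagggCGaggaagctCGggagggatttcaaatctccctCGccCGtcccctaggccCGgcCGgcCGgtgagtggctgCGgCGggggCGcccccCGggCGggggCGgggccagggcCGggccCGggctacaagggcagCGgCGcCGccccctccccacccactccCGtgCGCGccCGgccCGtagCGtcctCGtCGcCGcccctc
Dnmt3l: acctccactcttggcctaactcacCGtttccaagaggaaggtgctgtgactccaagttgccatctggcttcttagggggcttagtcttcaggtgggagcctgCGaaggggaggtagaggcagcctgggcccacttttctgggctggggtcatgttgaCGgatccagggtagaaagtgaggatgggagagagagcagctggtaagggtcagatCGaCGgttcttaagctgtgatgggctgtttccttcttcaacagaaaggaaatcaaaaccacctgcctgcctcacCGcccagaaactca
The Dnmt3a windows held 46, 47 and 18 CG and the Uhrf2 window 28. The 3′-biased counts do not tell which of the 3 Dnmt3l starts was used in mESCs. No methylation was measured in these libraries.

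Ratios within libraries describe the makeup of the DNMT3 family without any scaling between libraries. Dnmt3b counts were 0.0245, 0.0130, 0.0153 and 0.0240 of the Dnmt3a counts in the MEF libraries and 0.587, 0.505 and 0.740 in the mESC libraries, after adding 0.5 to each count. The ranges were far apart, and the ratio was 32.7-fold higher in mESCs, a difference of 5.03 log2 units between means of -5.76 ± 0.464 (SD, n = 4) and -0.73 ± 0.278 (SD, n = 3) (two-sided exact permutation p = 0.0286, adjusted 0.0667). Dnmt3l relative to Dnmt3a differed by 7.84 log2 units, with ratios of 0.906, 0.821 and 0.923 in the mESC libraries (exact permutation p = 0.0286, adjusted 0.0667). The size of this difference is uncertain, since Dnmt3l was at or near the floor in the MEF libraries except the deepest.

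Within the pair that was high in mESCs, the Dnmt3l to Dnmt3b ratio was 0.482, 0.0909, 0.273 and 0.158 in the MEF libraries and 1.54, 1.62 and 1.25 in the mESC libraries. The ratio was 2.81 log2 units higher in mESCs without overlap, which did not pass 0.05 (two-sided exact permutation p = 0.0571, adjusted 0.0667). Its MEF values rest on Dnmt3l counts of 20, 2, 4 and 4. Leaving out 1 library moved the difference between 2.41 and 3.21 log2 units. Set against Dnmt1, Dnmt3a was lower in mESCs by 0.83 log2 units (difference -0.83, exact permutation p = 0.0571) and Dnmt3b higher by 4.20 log2 units (exact permutation p = 0.0286), both without overlap.

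**Figure D3:**
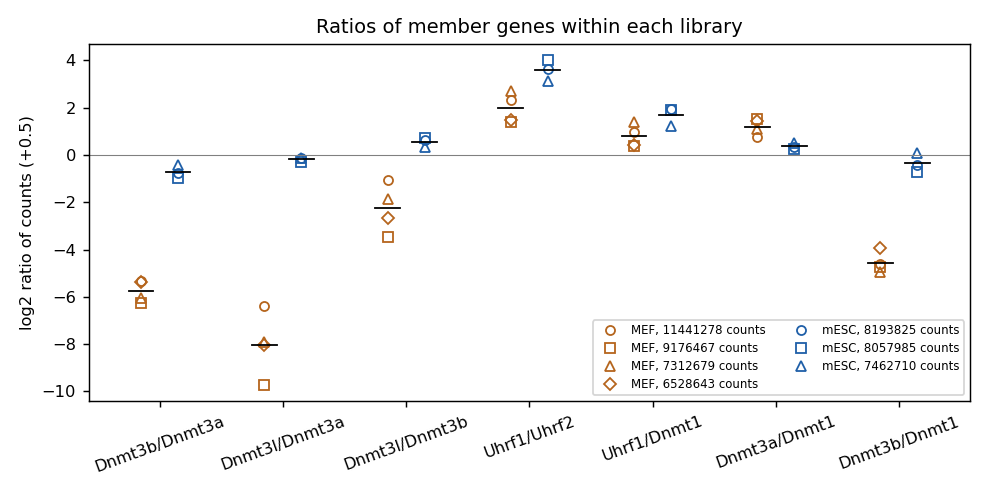
Log2 ratio of the counts of 2 genes within each library, with 1 point per library and 7 ratios. Only Uhrf1 to Dnmt1 overlaps between the cell types, and the ratios to Dnmt3a of Dnmt3b and Dnmt3l differ by 5.03 and 7.84 log2 units.

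The low levels left in MEFs were compared with those of pluripotency markers, each as a percent of the mESC mean of the same gene. Dnmt3b stood at 5.65%, 4.54%, 3.42% and 6.24% in the MEF libraries, with a group mean of 4.96%. The 12 markers had a median of 0.676% and ranged from 0.398% for Dppa4 to 4.45% for Epcam. The Dnmt3b mean was above that of each marker, but its order against Epcam changed from library to library. Epcam was the higher at a depth of 9176467 (4.77% against 4.54%) and at 7312679 (4.22% against 3.42%). Dnmt3b was the higher at 11441278 (5.65% against 4.90%) and at 6528643 (6.24% against 3.91%). Dnmt3l, at 1.85%, 0.232%, 0.589% and 0.615% had a group mean of 0.823%, within the range of the marker means, but its value of 0.232%, from 2 counts, was below that of every marker. The median over the 12 markers was 0.864%, 0.810%, 0.621% and 0.902% in the MEF libraries. The part of pluripotent cells in these levels was not tested. The sort for Thy1 is given for the chromatin libraries only, and in bulk RNA fewer expressing cells and less RNA per cell cannot be told apart.

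**Figure D4:**
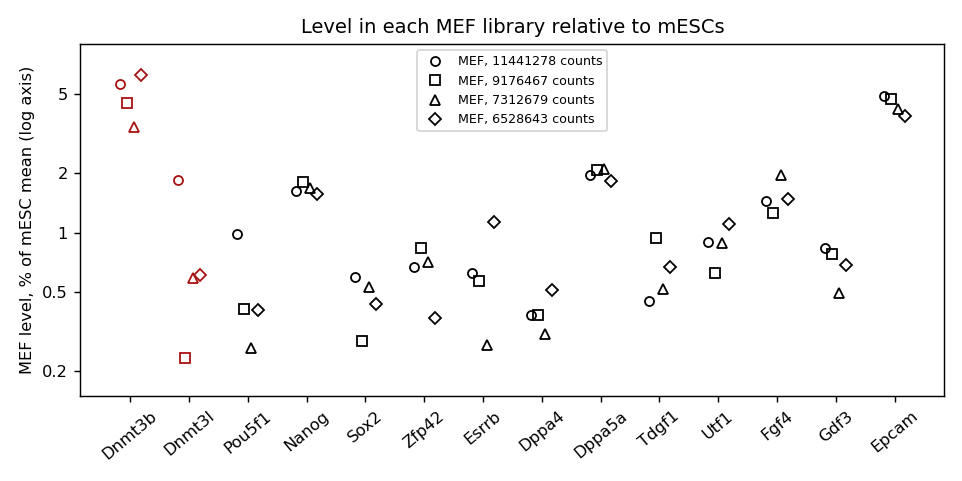
Level of Dnmt3b, Dnmt3l and 12 pluripotency markers in each MEF library as a percent of the mESC mean of the same gene, on a log axis. Dnmt3b lies between 3.42% and 6.24%, near Epcam and above the other markers. Dnmt3l lies among the markers in 3 libraries and below all of them in the library of 9176467 counts.

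Around the maintenance machinery, 7 of 10 tested partner genes were higher in mESCs and 2 lower, with a median log2 fold change of 1.25 (11 genes listed, Kat5 not tested). The called share was 90%, against 47.9% of all genes tested. Hells, a chromatin remodeller required for methylation, rose from 111 to 643 CPM on average, a log2 fold change of 2.53 (SE 0.228, edgeR adjusted p = 7.59e-06). Usp7, which stabilises DNMT1 and UHRF1, rose from 66.4 to 244 CPM and Rb1, an E2F inhibitor, rose from 2.20 to 8.01 CPM, each with a log2 fold change of 1.87. The Rb1 libraries overlapped, and its call was lost without the MEF library of 11441278 counts (1.68, adjusted p = 0.0509) or the mESC library of 8193825 counts (1.34, adjusted p = 0.124). Pclaf, a PCNA-binding protein, and Hdac2, a histone deacetylase, were lower in mESCs, with log2 fold changes of -2.27 and -0.52, and Hdac2 lost its call without TMM scaling (-0.23, adjusted p = 0.2003). Most tested partners rose, while Dnmt1 itself did not pass the test.

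Of 16 tested guides and regulators of de novo methylation, 8 were higher and 4 lower in mESCs, with a median log2 fold change of 0.66 (17 genes listed). The called share was 75%, against 47.9% of all genes tested. The germ cell genes Morc1 and Dppa3 averaged 0.350 and 0.853 CPM in MEFs and 70.5 and 50.6 CPM in mESCs. Prdm14, a pluripotency factor known to lower Dnmt3b and Dnmt3l, had 2 counts over the MEF libraries and averaged 6.13 CPM in mESCs. These 3 genes passed the filter on low counts through the mESC libraries, so their direction was fixed by it. The histone methyltransferase genes Nsd3, Suv39h1 and Nsd2 were higher in MEFs, with log2 fold changes of -1.48, -1.16 and -0.99.

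Among the genes for removal of methylation, 4 of 11 were higher and 1 lower in mESCs, with a median log2 fold change of 0.76. That is 45.5% of the list, near the 47.9% of all genes tested. Tet1, which oxidises methylcytosine, rose from 62.4 to 1013 CPM and Tet2 had a log2 fold change of 2.69, whereas Tet3 fell from 65.0 to 17.5 CPM, a log2 fold change of -1.89.

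Of a list of the MBD family and other readers of methylated CG, 1 of 9 tested genes was higher and 4 were lower in mESCs, with a median log2 fold change of -0.37. The called share was 55.6%, near the 47.9% of all genes tested. The list includes Mbd3, Mbd5 and Mbd6, whose proteins are not known to bind methylated CG selectively, and Mbd3 and Mbd5 are 2 of the 4 lower genes. Zbtb4 and Mbd2, for proteins that bind methylated DNA, had log2 fold changes of -1.79 each, and Mbd5 of -1.01. Mbd5 lost its call without TMM scaling (-0.73, adjusted p = 0.0791) and without the mESC library of 8193825 counts (adjusted p = 0.0749). Mbd4, a repair glycosylase counted in the removal list too, had 1.85. Of 12 mitosis genes, 7 were higher in mESCs and the others did not pass the test, with a median of 0.97. This called share of 58.3% stood against 47.9% of all genes tested. The 3 largest were Ccnb1 at 1.42, Aurka at 1.33 and Bub1 at 1.31 on the log2 scale.

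**Figure D5:**
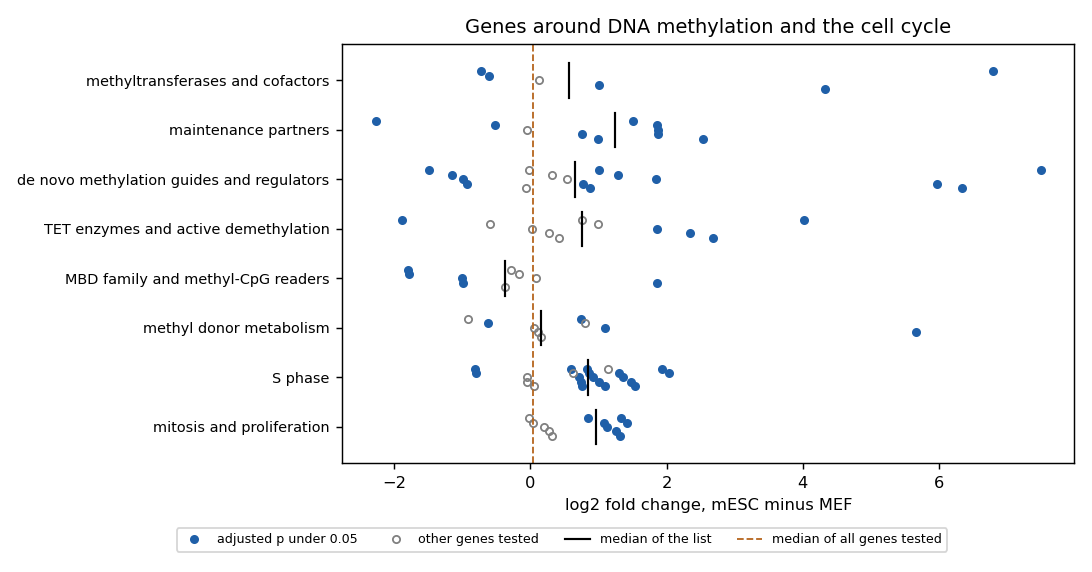
Log2 fold change, mESC minus MEF, of each tested gene in the lists around DNA methylation and the cell cycle, with filled points for an adjusted p under 0.05 and a line at each median. Maintenance partners, S phase and mitosis genes lie mostly above the median of all genes, and the MBD family with other readers mostly below it.

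The profiles nearest to each gene over the 7 libraries, by the distance between centred log2 CPM values, followed the difference between the cell types. For Dnmt3b they were Chrna9, Gm14401 and Tfap2c, at distances of 0.490, 0.567 and 0.626 log2 units. Their log2 fold changes were 5.61, 6.49 and 4.03, against 4.32 for Dnmt3b. Chrna9 and Gm14401 averaged only 0.133 and 0.0637 CPM in MEFs. At such levels the prior count of 2 shrinks differences in log2 CPM, so a small distance does not mean an equal fold. Dnmt3l was nearest to Gm49504, Hsd17b14 and Spint1, at 0.764, 0.778 and 1.01. Dnmt3a was nearest to Dock3, Pex19 and Kifap3, at 0.262, 0.292 and 0.303.

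For the maintenance genes the nearest profiles were Gtf3c3, Thrap3 and Larp4b for Dnmt1, at 0.199, 0.1999 and 0.225 log2 units, and Nup153, Pfas and Rrn3 for Uhrf1, at 0.375, 0.389 and 0.414. Uhrf2 was nearest to Ndufa1, Ptgis and Tpt1-ps6, at 0.220, 0.228 and 0.246. Near profiles of genes with small changes are easily found among 16580 genes, and 7 libraries of 2 cell types carry little beyond that contrast.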

How the data were processed

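The authors deposited 1 table of gene counts for the 7 libraries. According to the methods and labels, reads were demultiplexed (Sabre), trimmed (Cutadapt), aligned to mm10 with STAR, collapsed by molecular identifier (Je), and uniquely mapped reads on exons were counted with featureCounts. Annotation release and strand setting are not given in the sources used here. Column names gave the cell type but not the sample, and 0 columns were left out. Of the symbols, 26 had become dates, with 0.249% of counts.

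Counts were tested with edgeR 4.0.16 (R 4.3.3; TMM, filterByExpr, quasi-likelihood test, Benjamini-Hochberg over 16580 genes, threshold 0.05). Standard errors came from the F statistic, and log2 CPM used a prior count of 2. Ratios used counts plus 0.5 and two-sided exact permutation tests. The code was tested on simulated data. Alternatives were DESeq2 1.42.0, its size factors, no TMM, other filters, another prior count and leaving out each library. Floors of 3 counts cover counting error only.

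Named were the 6 genes, up to 3 genes with the largest and 3 with the smallest log2 fold change among those called in each list, the 3 nearest profiles and the cell type markers. Aire, Dnmt3aos, Dnmt3c, Gm5648, Kat5, Mbd3, Mbd6, Eif2s3y, Ddx3y, Kdm5d, Uty and Xist were added after values were seen. The genes and lists were chosen with earlier results of these data known. Locations are from GENCODE M21 and windows from RefSeq. Protein sequences were not analysed here.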

Additional observations from a re-analysis of the deposited data

How the results depend on the processing

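The calls of Dnmt3b and Dnmt3l kept their direction and their side of the threshold under every alternative run, and Dnmt1 passed under none. In the main fit the direction of Dnmt3l was fixed by the filter on low counts. Of the 6 genes, 5 were called, but 3 without TMM scaling, where Dnmt3a was at -0.44 (adjusted p = 0.0607) and Uhrf2 at -0.32 (adjusted p = 0.196). When each library was left out in turn, 3 to 5 were called, with 3 left without the MEF library of 9176467 counts or the mESC library of 8057985 counts. The log2 fold changes then ranged from 0.80 to 1.26 for Uhrf1 and from -0.70 to -0.52 for Uhrf2, and both lost their call in some of these fits; Dnmt3a ranged from -0.80 to -0.57, Dnmt3b from 4.18 to 4.43 and Dnmt3l from 6.46 to 7.71. Ratios ranged from 4.86 to 5.16 for Dnmt3b to Dnmt3a, 7.27 to 8.38 for Dnmt3l to Dnmt3a, 3.99 to 4.41 for Dnmt3b to Dnmt1 and -0.78 to -0.57 for Dnmt1 to the S phase genes. With 6 libraries the exact p cannot go below 0.0667, so it cannot pass 0.05 there. Uhrf1 to the S phase genes ranged from 0.0083 to 0.56. By Pearson correlation, 5 of the 18 nearest profiles were shared. Thrap3 ranged from -0.014, without the mESC library of 8057985 counts, to 0.18, and the cause of the change in sign was not tested. For the other 79 genes named, 928 of 948 values kept direction and call, 16 lost the call, 3 gained it and 1 reversed. No paired analysis was possible because the columns carry no sample or pair, so the replicate block was not run. Depth limits mainly Dnmt3l in MEFs, where 1 of 4 libraries was under 3 counts.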

Other observations

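Of 9 tested genes of methyl donor metabolism, 3 were higher and 1 lower in mESCs by edgeR, 44.4% called against 47.9% of all genes tested, with a median log2 fold change of 0.16. Mtr, for methionine synthase, had a log2 fold change of 1.09 and Mat2b, a regulatory subunit of methionine adenosyltransferase, 0.74, while Ahcyl1 was lower at -0.62. The call of Mat2b was lost without the mESC library of 8057985 counts (0.46, adjusted p = 0.0841). That of Ahcyl1 was lost without TMM scaling (-0.34, adjusted p = 0.176) and without the mESC library of 7462710 counts (-0.45, adjusted p = 0.0870). Gnmt, a glycine methyltransferase that consumes the methyl donor, averaged 0.0762 CPM in MEFs and 4.06 CPM in mESCs. Gnmt is 1 of the 3 higher genes, and it passed the filter on low counts through the mESC libraries, so its direction was fixed by it. Mat2a, the donor synthase of most tissues, stood at 272 ± 25.4 CPM (SD, n = 4) in MEFs and 282 ± 37.3 CPM (SD, n = 3) in mESCs, and was added after its values were seen.

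Of 15 germline genes known to be silenced by promoter methylation, 10 passed the filter on low counts. Most of these passed through the mESC libraries, with MEF libraries at or near the floor, so their count and size are no support for a direction. Tuba3a averaged 0.114 CPM in MEFs and 51.0 CPM in mESCs, Dazl 0.234 and 27.1 CPM, and Mael 0.0480 and 8.02 CPM.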
